A study of Homo sapiens with 6 samples.

Results

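SPI1, CEBPA, CEBPD, CEBPE, IRF8, GFI1, RUNX1, MYB and KLF4 encode transcription factors that direct the myeloid lineage, and their transcripts were followed in the leukaemia cell line OCI-AML2 treated with the kinase inhibitor MRT199665. All 9 were chosen by gene symbol from the 55765 rows of the count table, and 7 of the 9 passed the low-count filter. The choice did not go by their values, but it was made with earlier results of these data known. OCI-AML2 is an established line from acute myeloid leukaemia, and the labels state that clones derived from single cells were cultured. The treated group held 3 libraries from cells given 100 nM MRT199665, described in the labels as a MARK inhibitor, and the vehicle group held 3 libraries, both taken at 48 h. MARK kinases phosphorylate microtubule-associated proteins, and the series title concerns phosphorylation of the factor MEF2C and resistance to chemotherapy. Nothing in the labels says that the 3 libraries of a group were separate cultures, so the p-values measure the spread between libraries, which may be technical.

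Myeloid cells arise as progenitors come under the control of a small set of factors that act in combination. PU.1, the ETS factor encoded by SPI1, and the C/EBP factors, which bind as basic leucine zipper dimers, open and activate genes of granulocytes and monocytes. IRF8 favours monocytes and dendritic cells, GFI1 is a repressor that favours granulocytes, C/EBP epsilon acts late in granule formation, and KLF4 acts in monocyte maturation. RUNX1 with its partner CBFB acts early in blood formation, and MYB maintains proliferating progenitors and usually declines as they mature. Several of these factors are known to bind each other's genes and, together, the promoter of CSF1R, the macrophage colony-stimulating factor receptor gene.

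Promoter letters of 3 lineage factors and of CSF1R are given first, because the results set the levels of these regulators beside those of genes they are known to bind. Each line holds the 150 bases before a RefSeq start site (GRCh38.p14), 5′ to 3′ on the gene's strand, with capitals marking matches on either strand to a PU.1 core (GAGGAA), a C/EBP site (TTGCNNAA) or a RUNX site (TGTGGT).

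RUNX1 (chr21:34888700-34888849, minus strand): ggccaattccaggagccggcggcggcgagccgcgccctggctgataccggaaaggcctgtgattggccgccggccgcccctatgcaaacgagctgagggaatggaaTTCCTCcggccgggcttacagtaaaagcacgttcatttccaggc
CEBPE (chr14:23119256-23119405, minus strand): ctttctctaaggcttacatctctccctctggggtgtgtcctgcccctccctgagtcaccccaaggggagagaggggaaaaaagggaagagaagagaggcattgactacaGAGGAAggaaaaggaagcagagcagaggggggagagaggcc
GFI1 (chr1:92486100-92486249, minus strand, the second of 3 start sites): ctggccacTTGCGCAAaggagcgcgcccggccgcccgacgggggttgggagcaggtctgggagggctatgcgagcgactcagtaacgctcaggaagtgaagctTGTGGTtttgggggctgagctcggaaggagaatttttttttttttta
CSF1R (chr5:150086555-150086704, minus strand, the second of 2 start sites): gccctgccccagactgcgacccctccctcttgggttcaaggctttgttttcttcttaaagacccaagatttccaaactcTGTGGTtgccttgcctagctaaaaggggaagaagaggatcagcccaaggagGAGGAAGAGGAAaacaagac

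The PU.1 core began 44 bases before the start in RUNX1 and 41 bases before it in CEBPE. The GFI1 stretch held a palindromic C/EBP match and a RUNX match, and the CSF1R stretch held a pair of adjoining PU.1 cores after a RUNX match. In whole windows, which run on 50 bases past the start, a PU.1 core occurred in 5 of the 10 windows of the 7 lineage factors found in the table, against 27.85% of 35116 windows of all genes. A C/EBP match occurred in 1 of the 10 (10.46% of all windows) and a RUNX match in 2 (13.07%). A MYB site (AACNG) was found in 7 of the 10 (77.17%), the letters TGACGTCA in 0 (1.848%) and TGACG in 1 (24.55%). GFI1 and IRF8 had more than 1 window each, and with 10 windows these counts were not read as differences from the background. The stretches printed above each held a PU.1, C/EBP or RUNX match. The windows at the first start sites of CSF1R and GFI1, the CEBPA window and the second IRF8 window held none. Such matches describe letters and do not show that a factor was bound.

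The line carried some of the myeloid markers its label implies at high levels, while others were low or listed at 0. Of 12 myeloid markers, 11 were tested, with 5 higher and 2 lower at an unadjusted p under 0.05 and none called by edgeR. Of all tested genes, 7.64% were higher and 7.11% lower at that mark. MPO, the granule peroxidase gene, averaged 89.7 CPM (the count share scaled for depth, on totals adjusted by the TMM method) with MRT199665 against 65.1 CPM with vehicle. CD38, a surface enzyme gene, averaged 34.1 against 54.0 CPM, and ANPEP, the CD13 gene, 0.937 against 1.72 CPM. LYZ, the lysozyme gene, was also low, at 3.60 against 1.51 CPM. Of its last bases, 97.0% lie within exons on the opposite strand in GENCODE release 29. Whether reads of LYZ were lost in counting was not tested, so its low level need not be a trait of the line. The sum of the 12, most of it from LAPTM5 and SPN, lay between 3187 and 3386 CPM with MRT199665 and between 2716 and 2777 CPM with vehicle. CD68 was listed at 0, and in GENCODE release 29 its last bases lie partly within exons of other genes on either strand. Erythroid markers summed to at most 0.671 CPM in any library, with 8 of 11 at 0, and megakaryocyte markers to at most 5.58 CPM, with PF4 and PPBP at 0. B cell markers lay between 6.96 and 9.47 CPM, with MS4A1 and BLK at 0. T and NK cell markers summed to between 10.0 and 11.3 CPM with MRT199665 and between 7.64 and 8.35 CPM with vehicle. NKG7, a cytotoxic granule gene, made up most of that sum and CD2 was at 0. Fibroblast and epithelial markers lay between 28.6 and 63.9 CPM, with COL3A1 and KRT19 at 0 and most of the sum from CDH1. The myeloid and the T and NK cell sums did not overlap between the groups, and their part in the results below was not tested. Library totals ran from 5871097 to 14308650 counts. The first principal component (46.75% of the variance) did not separate the groups, and MRT199665 replicate 2, also the shallowest library, and vehicle replicate 2 stood at its ends.

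None of the 7 tested lineage factors differed between MRT199665 and vehicle at the threshold over all genes. The threshold was a Benjamini-Hochberg adjusted p under 0.05 over 13053 tested genes (edgeR quasi-likelihood test, two-sided), which called 1.25% of all genes (0.850% higher and 0.398% lower). In these bulk libraries, fewer cells of a type and less RNA per cell cannot be told apart. RUNX1 had a higher mean and CEBPD a lower mean with unadjusted p under 0.05 (edgeR), a mark that 14.7% of all tested genes reached (7.64% higher and 7.11% lower). DESeq2 and limma-voom also called 0 of the lineage factors, with 0 higher and 1 lower at an unadjusted p under 0.05 by DESeq2 and 1 in each direction by limma-voom. The share of all genes at that mark was counted for edgeR alone. The median log2 fold change of the 7 was 0.053, against 0.0059 over all tested genes. The groups did not overlap for RUNX1 (higher) and for CEBPD and MYB (lower), 3 of 7, against 22.2% of all tested genes (11.4% higher and 10.8% lower), and with 7 genes this count was not read as a difference from the background. The greatest fold among the 7 was 1.37. On counts simulated from these libraries for 13053 genes, the same test recovered 7.46% of 1.5-fold changes, 49.3% of 2-fold changes and 95.5% of 4-fold changes. Those shares average over genes of all levels and spreads. The standard error of the log2 fold change ran from 0.110 (MYB) to 0.319 (IRF8) among the 7, against a median of 0.195 over all tested genes. NCF4, an oxidase subunit gene with means of 280 and 182 CPM, was called at 1.54-fold (edgeR adjusted p = 0.0263). Its standard error, 0.102, was below those of the 7, and its call ended whichever single library was left out. What the test could call at the levels of the lineage factors was not simulated apart.

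**Figure D1:**
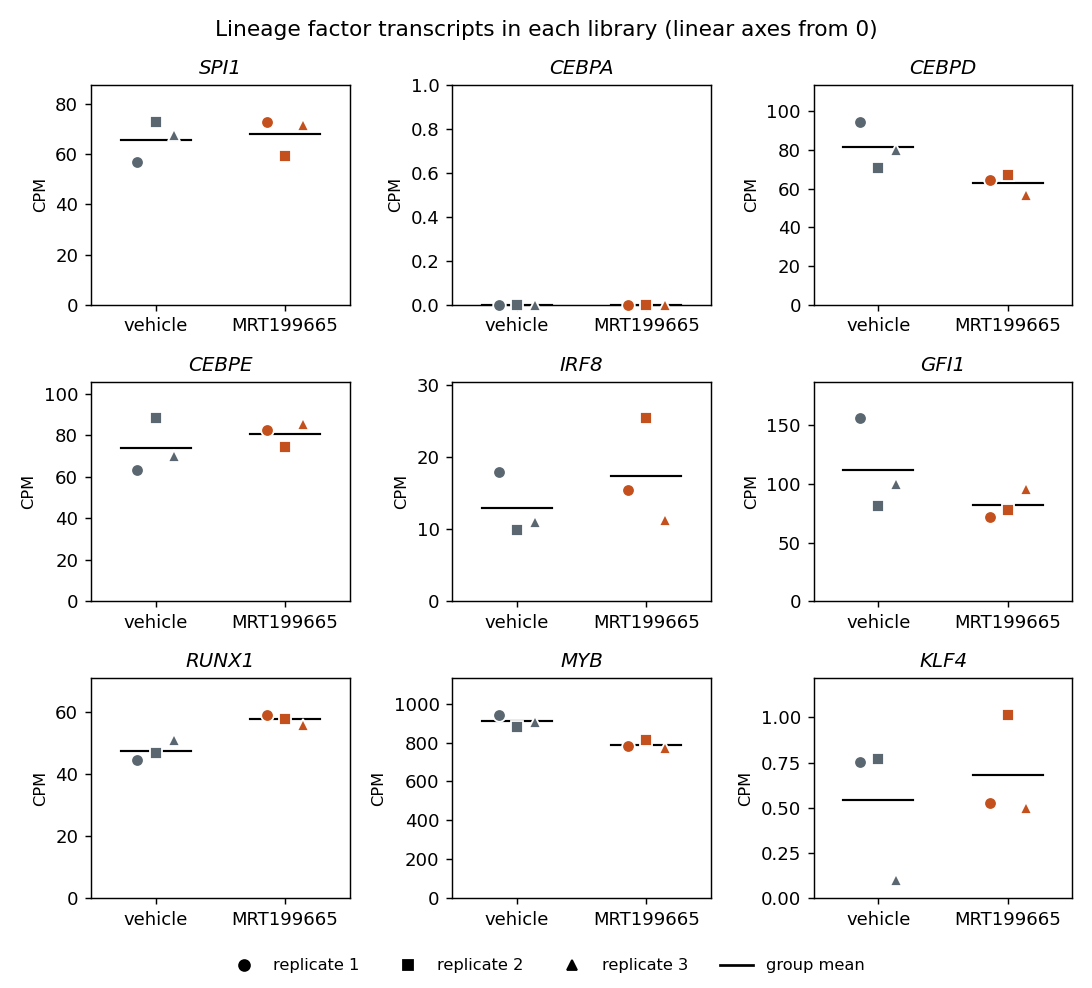
Level of each of the 9 lineage factors in every library, in CPM on linear axes that start at 0, with 1 symbol per replicate number and a bar at each group mean. The treated and vehicle symbols separate for RUNX1, CEBPD and MYB, overlap for SPI1, CEBPE, IRF8, GFI1 and KLF4, and lie at 0 for CEBPA.

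SPI1 encodes PU.1, which activates most genes of the monocyte and granulocyte programme. It stood at 73.0, 59.5 and 71.5 CPM in MRT199665 replicates 1, 2 and 3 and at 56.7, 72.7 and 67.8 CPM in vehicle replicates 1, 2 and 3. The groups overlapped fully, with MRT199665 replicate 2 and vehicle replicate 1 the lowest of their groups. The treated mean was 68.0 ± 7.41 CPM and the vehicle mean 65.7 ± 8.18 CPM (SD, n = 3 each). The log2 fold change was 0.053 with a 95% interval from -0.26 to 0.36 (edgeR adjusted p = 0.910). It was -0.044 without vehicle replicate 1.

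RUNX1 encodes the DNA-binding subunit of core binding factor. Its transcripts stood at 59.1, 57.8 and 56.0 CPM in MRT199665 replicates 1, 2 and 3 and at 44.5, 46.7 and 51.1 CPM in vehicle replicates 1, 2 and 3. All treated libraries lay above all vehicle libraries. Its fold change was 0.28 ± 0.11 on the log2 scale (SE), with a 95% interval from 0.03 to 0.53 (edgeR adjusted p = 0.280). When 1 library was left out it lay between 0.24 and 0.34.

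Among the C/EBP genes, CEBPD, which encodes a factor of acute inflammatory responses and myeloid maturation, had the lowest p of the lineage factors, at place 1182 among 13053 genes. It stood at 64.6, 66.9 and 56.5 CPM in MRT199665 replicates 1, 2 and 3 and at 94.6, 70.5 and 80.1 CPM in vehicle replicates 1, 2 and 3. The groups did not overlap, though MRT199665 replicate 2 came close to vehicle replicate 2. CEBPD had a log2 fold change of -0.39 ± 0.14 (SE), with a 95% interval from -0.70 to -0.07 (edgeR adjusted p = 0.243).

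CEBPE, which encodes the factor of late granulocyte maturation, stood at 82.8, 74.2 and 85.5 CPM with MRT199665 and at 63.2, 88.3 and 70.0 CPM with vehicle, in order of replicate number. Vehicle replicate 2 had the highest value of all 6, so the groups overlapped. The means were 80.8 ± 5.91 and 73.8 ± 12.98 CPM (SD, n = 3 per group). The log2 fold change was 0.13 with a 95% interval from -0.20 to 0.46 (edgeR adjusted p = 0.728). It was 0.031 without vehicle replicate 1, 0.077 without MRT199665 replicate 3, 0.27 without vehicle replicate 2 and 0.33 with both libraries numbered 2 left out (adjusted p = 0.257).

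CEBPA, which encodes the factor required for granulocyte precursors and often mutated in this leukaemia, was listed at a count of 0 in all 6 libraries. A limit of 3 counts per library corresponds to between 0.213 and 0.507 CPM, and it covers counting error only. CEBPA-AS1, a transcript named for this locus and looked at after the value of CEBPA was seen, had between 111 and 283 counts per library. It stood at 14.6, 18.8 and 20.1 CPM with MRT199665 and at 20.5, 12.4 and 16.9 CPM with vehicle. In GENCODE release 29, an annotation on a later build than that of the counts, the last 300 bases of CEBPA lie wholly within exons of a gene on the opposite strand. Whether reads of CEBPA were lost in counting was not tested, and the strand setting is not known. Of 683 coding genes in that position, 10.83% were at 0 in all libraries, against 19.29% of 15680 coding genes free of such exons. FCGR1A, a Fc receptor gene in the same position, averaged 26.3 CPM over the treated and 27.6 CPM over the vehicle libraries. TUBB1, a megakaryocyte marker also in that position, averaged 0 CPM over the treated and 0.0625 CPM over the vehicle libraries. LYZ, a myeloid marker with 97.0% of its last 300 bases so covered, averaged 3.60 CPM over the treated and 1.51 CPM over the vehicle libraries. The genes compared were not matched for expression, and a share of genes at 0 does not show partial loss of reads.

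IRF8, which encodes the interferon regulatory factor of monocytes and dendritic cells, had the widest interval of the tested lineage factors. It stood at 15.4, 25.4 and 11.3 CPM in MRT199665 replicates 1, 2 and 3 and at 17.9, 9.95 and 10.99 CPM in vehicle replicates 1, 2 and 3. The groups overlapped, and MRT199665 replicate 2 held the highest value. On the log2 scale its fold change was 0.39, with a 95% interval from -0.34 to 1.11 (edgeR adjusted p = 0.632). It was 0.042 without MRT199665 replicate 2 and 0.69 without vehicle replicate 1.

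GFI1, the zinc finger repressor gene, stood at 71.8, 77.8 and 95.6 CPM in MRT199665 replicates 1, 2 and 3 and at 155.7, 80.8 and 99.4 CPM in vehicle replicates 1, 2 and 3. Vehicle replicate 1 lay far above the other 5 libraries, and the groups overlapped. GFI1 had a log2 fold change of -0.45, with a 95% interval from -0.98 to 0.07 (edgeR adjusted p = 0.413), and of -0.14 without vehicle replicate 1.

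MYB, the progenitor factor gene, stood at 784, 813 and 770 CPM in MRT199665 replicates 1, 2 and 3 and at 942, 881 and 904 CPM in vehicle replicates 1, 2 and 3. Every treated library lay below every vehicle library. The means were 789 ± 21.8 and 909 ± 31.1 CPM (SD, n = 3 per group). The log2 fold change was -0.20 ± 0.11 (SE), with a 95% interval from -0.45 to 0.04 (edgeR adjusted p = 0.438), and lay between -0.24 and -0.18 when 1 library was left out.

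KLF4, a zinc finger factor gene of monocyte maturation, did not pass the low-count filter. Its counts were 7, 6 and 7 in MRT199665 replicates 1, 2 and 3 and 9, 9 and 1 in vehicle replicates 1, 2 and 3. At that depth the groups could not be told apart. Fitted without a filter, its log2 fold change was 0.13 (edgeR adjusted p = 0.963).

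**Figure D2:**
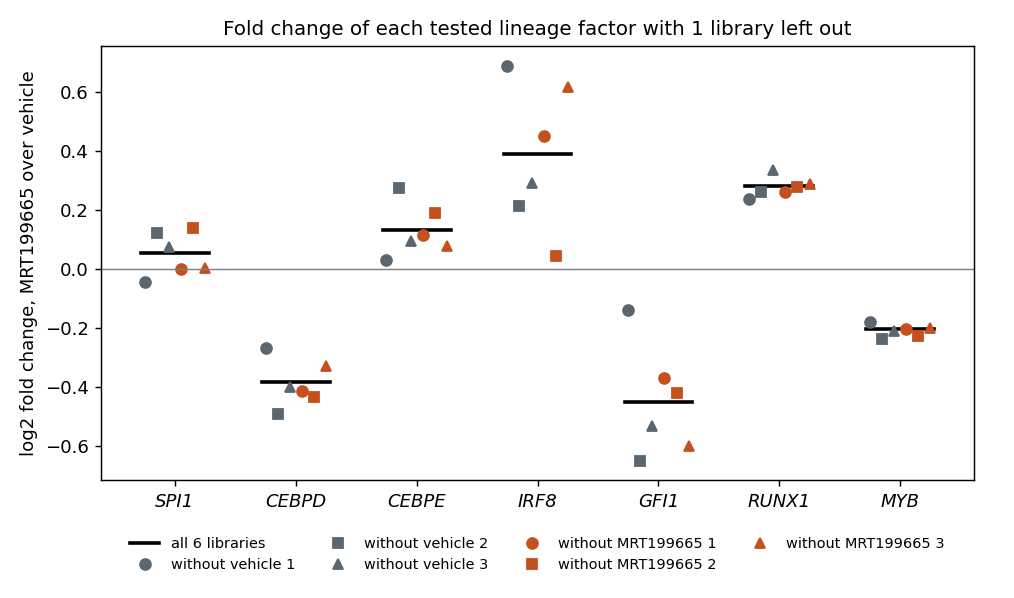
Log2 fold change of the 7 tested lineage factors over all 6 libraries (black bar) and with each library left out in turn (symbols, coloured by the group of the library removed). RUNX1 and MYB stay close to their bars, IRF8 drops to 0.042 without MRT199665 replicate 2, and GFI1 moves to -0.14 without vehicle replicate 1.

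Over the 6 libraries, many genes resembled each lineage factor. Of 5327 other tested genes with a mean of at least 20 CPM, between 64 (CEBPD) and 261 (SPI1) had a Pearson r over 0.9 with the factor, on log2 CPM. The closest were RAB8A to RUNX1 (r = 0.997), NTNG2 to CEBPE (r = 0.996), EIF4G1 to SPI1 (r = 0.994), PSMD14 to MYB (r = 0.992), LRRC42 to GFI1 (r = 0.988), CIRH1A to CEBPD (r = 0.980) and PHACTR3 to IRF8 (r = 0.979). These values describe 6 points that share treatment and library differences.

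Among relatives of the lineage factors, SPIB rose with MRT199665. SPIB encodes Spi-B, the ETS factor most similar to PU.1 and known from B cells and plasmacytoid dendritic cells. It stood at 8.83, 8.11 and 9.71 CPM in MRT199665 replicates 1, 2 and 3 and at 3.61, 3.78 and 3.56 CPM in vehicle replicates 1, 2 and 3. The groups were far apart relative to their spread. The increase was 2.44-fold, with a log2 fold change of 1.29 ± 0.17 (SE, edgeR adjusted p = 0.00983), and DESeq2 and limma-voom each called 1 gene of its list higher. Its call ended without either library numbered 3, with adjusted p = 0.0956 when that of MRT199665 was left out and 0.0916 when that of vehicle was. The log2 fold change of SPIB was then 1.204 and 1.27. Over all genes, those fits called 36 and 29 higher, against 111 with every library. SPIB was the called member among 9 tested of 12 ETS and MYB relatives, where 0.850% of all tested genes were called higher. The median log2 fold change of those relatives was 0.079. At an unadjusted p under 0.05 (edgeR), 3 of them were higher and 0 lower, against 7.64% and 7.11% of all tested genes. ETS2, another ETS factor gene, was at 0.55 (adjusted p = 0.204). GFI1B, the GFI1 relative of erythroid cells, and SPIC, the third PU.1-like gene, were listed at 0.

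CEBPB, CEBPG and DDIT3 of the C/EBP family were tested together with CEBPZ, which shares the symbol but encodes no basic leucine zipper factor. None of the 4 was called by edgeR, DESeq2 or limma-voom. By edgeR, 2 had an unadjusted p under 0.05, both lower, where 7.11% of all tested genes were lower at that mark. CEBPB, which encodes a factor of macrophage activation and emergency granulocyte production, stood at 21.5, 20.8 and 26.1 CPM with MRT199665 and at 38.3, 29.3 and 30.6 CPM with vehicle. Its groups did not overlap, and the log2 fold change was -0.52 ± 0.16 (SE, edgeR adjusted p = 0.171). DDIT3, which encodes the stress-induced factor CHOP, had means of 2.57 and 4.20 CPM and a log2 fold change of -0.71 (adjusted p = 0.211). CEBPG and CEBPZ were at 0.082 and -0.021. The last bases of DDIT3 and CEBPZ partly overlap genes on the opposite strand in GENCODE release 29, and no source used here gives the strand setting of the counts.

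Of 8 other interferon regulatory factor genes, 6 were tested and 0 called by edgeR, DESeq2 or limma-voom, with 2 higher and 1 lower at an unadjusted p under 0.05 (edgeR). For this list and those that follow here, the share of all tested genes at that mark was 7.64% higher and 7.11% lower. IRF7, the interferon amplifier, was at a log2 fold change of 0.83 (adjusted p = 0.0895, or 0.0174 without a low-count filter) and IRF5 at 0.59 (adjusted p = 0.140). Of the RUNX genes and their partners, 5 of 6 were tested and 0 called by the same tools, with 1 at an unadjusted p under 0.05. RUNX2 was at 0.31 (adjusted p = 0.312), and at 0.21 without MRT199665 replicate 2. The corepressor gene CBFA2T3 was at 0.38 (adjusted p = 0.381), at 0.22 without MRT199665 replicate 2 and at 0.10 with both libraries numbered 2 left out. Of 11 genes of GFI1 cofactors and relatives or KLF factors, 9 were tested and 0 called by the same tools, with 1 at an unadjusted p under 0.05. HDAC2, a deacetylase that GFI1 recruits, was at -0.29 and KLF6 at -0.22. Of 30 other haematopoietic factor genes, 24 were tested and 0 called by edgeR or limma-voom and 1 by DESeq2, with 7 higher and 2 lower at an unadjusted p under 0.05 (edgeR). TFEB, the lysosomal regulator, was at 0.60 (edgeR adjusted p = 0.0700, DESeq2 adjusted p = 0.0376) and BATF3, a dendritic cell factor gene, at -0.79 (edgeR adjusted p = 0.0904, or 0.0147 without a low-count filter). These lists were described, not tested as sets, and their members were chosen with earlier results of these libraries known.

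**Figure D3:**
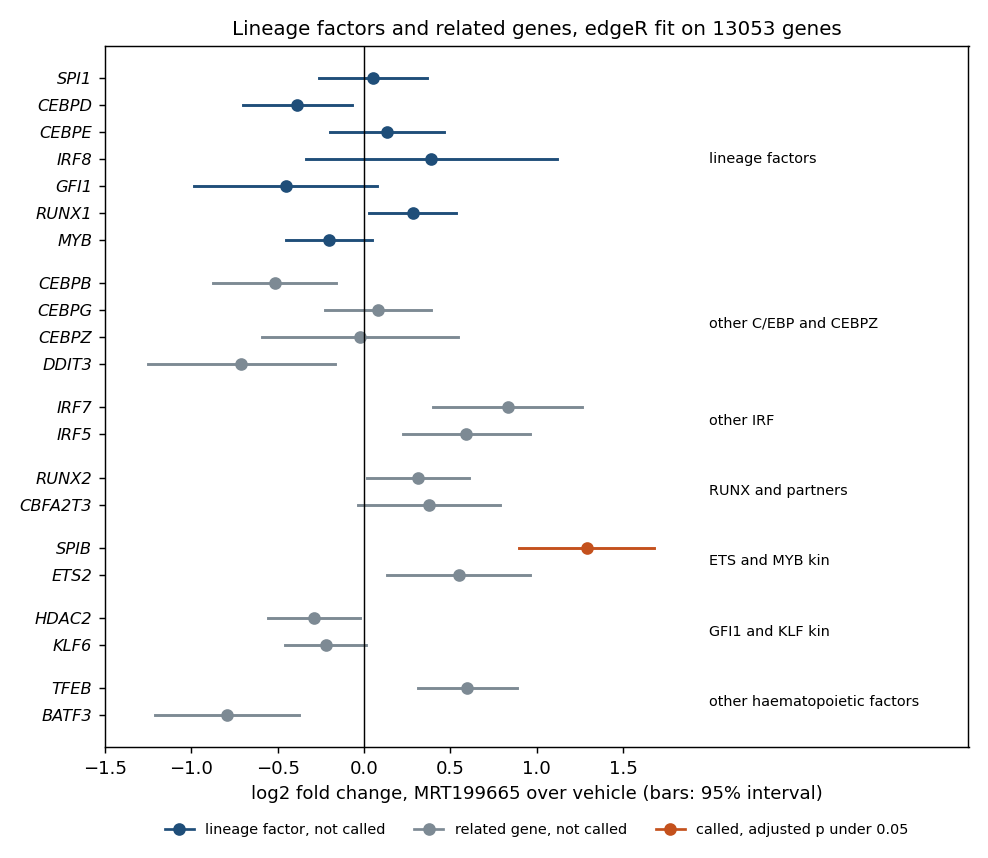
Log2 fold change with its 95% interval for the 7 tested lineage factors and 14 related genes named by rule (other transcription factors, the corepressor CBFA2T3 and the deacetylase HDAC2), in groups. SPIB, at 1.29, is the gene called, while the intervals of SPI1, CEBPE, IRF8, GFI1 and MYB cross 0.

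Genes described as targets of these factors were then counted, from lists that hold genes already known to differ in these libraries. Of 24 receptor and effector genes described as regulated by PU.1 or C/EBP alpha, 20 were tested, 4 rose and 0 fell, with a median log2 fold change of 0.44, where the background of genes called higher was 0.850%. CSF1R stood between 37.5 and 44.2 CPM in the MRT199665 libraries and between 6.80 and 9.09 CPM in the vehicle libraries. That was a 5.09-fold increase beside an SPI1 log2 fold change of 0.053 and a RUNX1 log2 fold change of 0.28. CYBB and NCF4, subunit genes of the phagocyte oxidase, rose 2.14-fold and 1.54-fold, and TYROBP, an adaptor of myeloid receptors, 1.94-fold. CSF1R and CYBB were called without each single library. For TYROBP the adjusted p was 0.0643 when MRT199665 replicate 3 was left out and 0.0971 when vehicle replicate 3 was. For NCF4 it passed 0.05 whichever of the 6 libraries was removed (highest 0.193, for vehicle replicate 3). CSF2RA and CD68 of this list were at a count of 0, and CD14 and NCF1 did not pass the filter. Loss of reads in counting was not tested for these or for other genes listed at 0. A listed 0 therefore need not mean that no transcript was present.

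Of 14 antigen presentation and phagocyte genes described as regulated by IRF8, 10 were tested, 2 rose and 0 fell, with a median log2 fold change of 0.56, where 0.850% of all tested genes were called higher. As the genes were listed with results of these libraries known, this count is no independent evidence about IRF8 targets. CIITA, the class II transactivator gene, stood at 14.95, 14.4 and 16.1 CPM with MRT199665 and at 8.14, 7.98 and 7.63 CPM with vehicle, whereas the IRF8 libraries overlapped. CST3, the cystatin C gene, rose 1.69-fold. Both calls were lost when certain single libraries were left out. For CIITA, leaving out MRT199665 replicate 1, MRT199665 replicate 3, vehicle replicate 2 or vehicle replicate 3 ended it (highest adjusted p = 0.1345). For CST3, removal of any library but vehicle replicate 2 did (highest 0.211).

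Of 13 late granule genes described as regulated by C/EBP epsilon, 7 were tested, 1 rose and 0 fell, with a median of 0.14 and the same background and limit. The gene that rose, CHI3L1, encodes a chitinase-like protein and had a mean of 4.17 ± 0.749 CPM after MRT199665 and of 0.999 ± 0.346 CPM after vehicle (SD, n = 3 each). Its call ended without replicate 2 or 3 of either group (highest adjusted p = 0.150). S100A8 was at a log2 fold change of 0.82 (edgeR adjusted p = 0.259), with MRT199665 replicate 2 at 54.8 CPM and replicates 1 and 3 at 22.9 and 25.6 CPM, and at 0.34 with replicate 2 left out. Fitted without a low-count filter it was called (adjusted p = 0.000917). CRISP3 was at 0, and LTF, LCN2, CAMP, TCN1 and PGLYRP1 did not pass the filter.

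Of 14 progenitor genes described as regulated by MYB, 12 were tested and 0 called by edgeR, DESeq2 or limma-voom, with 2 higher and 1 lower at an unadjusted p under 0.05 (edgeR), and a median log2 fold change of 0.036. At that mark, 7.64% of all tested genes were higher and 7.11% lower. FLT3, a receptor tyrosine kinase gene of progenitors, was at 0.57 (adjusted p = 0.149) and CCNB1, the cyclin B1 gene, at -0.39 (adjusted p = 0.218). CD34 and GFI1B were listed at 0.

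**Figure D4:**
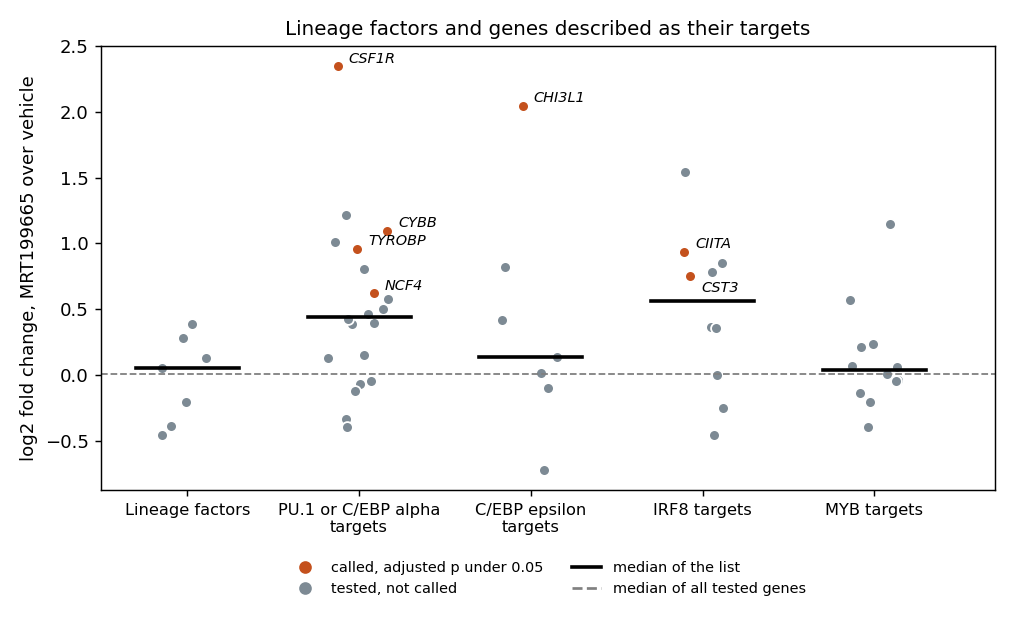
Log2 fold change of each tested gene among the lineage factors and among 4 lists of genes described as their targets, with the median of each list as a bar and the median of all tested genes as a dashed line. The lineage factors lie between -0.45 and 0.39 with none called, while 4 PU.1 or C/EBP alpha targets, 1 C/EBP epsilon target and 2 IRF8 targets were called higher.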

How the data were processed

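The deposited table holds whole-number read counts per gene symbol, not normalized, for 6 libraries made with a Lexogen kit that sequences 3′ ends, per the labels' protocols. The submitters' processing notes name hg19 as build and, as tools, HTSeq 0.6.1, STAR 2.4 and DESeq2. The annotation, strand setting and read filters are not given in the sources used here, and no coordinates of the counted genes are given. Totals ran from 5871097 to 14308650 counts, which limits precision for genes at few CPM. Groups and replicate numbers came from sample titles.

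All genes were fitted with edgeR 4.0.16 in R 4.3.3 (glmQLFit, glmQLFTest, TMM, group as the only term) on the 13053 genes that filterByExpr kept (min.count 10, min.total.count 15). The SE was the log2 fold change divided by the square root of F. The code was tested on simulated data with 200 changed genes. Alternatives were other scalings and filters, DESeq2 1.42.0, limma-voom (limma 3.58.1), newer quasi-dispersion, a 1.5-fold threshold, the replicate block and leaving out libraries. Named were all 9 lineage factors, CEBPB, CEBPG, CEBPZ and DDIT3, and per list every called gene or else the lowest p up to 2, and the genes closest to each factor. The factors and lists were chosen with earlier results of these data known. Promoters came from a RefSeq table on GRCh38.p14, which held 7 of the 9 factors.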

Additional observations from a re-analysis of the deposited data

How the results depend on the processing

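No lineage factor was called under any of the 17 alternatives. Their directions held under each, except that the SPI1 log2 fold change ran from -0.044 to 0.14 when 1 library was left out, and that of IRF8 was -0.13 with both libraries numbered 2 left out (0.042 to 0.69 with 1 left out). Among related genes, CEBPG turned to -0.053 with both libraries numbered 2 left out, and CEBPZ ran from -0.29 to 0.13 with 1 left out. The causes were not tested. Over all genes, 111 were called higher and 52 lower. These counts were 373 and 271 without a low-count filter, 197 and 150 with DESeq2, and 29 and 16 against 1.5-fold. Leaving out 1 library gave 29 to 78 higher and 20 to 55 lower, with the fewest without vehicle replicate 3 or MRT199665 replicate 3. With the replicate block 7 were higher and 5 lower. Same-numbered libraries did not deviate together (correlations of -0.547, -0.467 and 0.0182 for numbers 1, 2 and 3, and MRT199665 replicate 1 was closest to vehicle replicate 2), so the numbers were not taken as pairs. Of the genes named as called, CSF1R was also called with the block. Tested against 1.5-fold, the calls of SPIB (adjusted p = 0.0905), CHI3L1 (0.0905), TYROBP (0.237), CIITA (0.391), NCF4 (1) and CST3 (1) ended. With both libraries numbered 2 left out, those of NCF4 (0.0683) and CHI3L1 (0.0658) ended. SPIB had adjusted p = 0.166 with the block, with a log2 fold change of 1.204 to 1.37 over all alternatives. Depth limits KLF4, with at most 9 counts in a library.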
